A study of Mus musculus with 6 samples.

Results

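Erythroid commitment and heme genes were followed in long-term hematopoietic stem cells (LT-HSCs) through 9 genes taken by name: Gata1, Klf1, Epor, Alas2, Slc4a1, Ermap, Trim10, Car1 and Car2. Each was measured by 1 probe set, and they are 9 of the 19938 genes that had a probe set of their own. The study compared LT-HSCs of Lxn-/- mice, in which exons 2 to 4 of the latexin gene are deleted and the protein is absent, with LT-HSCs of WT mice carrying the intact gene. Both groups were female C57BL/6 mice, 8 to 12 weeks old, with no treatment given in the labels, and latexin is an inhibitor of metallocarboxypeptidases. The labels give no Cre or tissue restriction for the deletion. The bone marrow sort kept cells with Sca1 and c-Kit and left out those with lineage markers, CD34 or Flt2, as the last is spelled in the labels. Expression was read on Affymetrix mouse gene arrays. Each of the 3 arrays per genotype received RNA of a separate pool of about 100000 cells from 10 to 20 mice. Spreads between arrays are therefore spreads between pools, not between single mice.

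Red cell formation starts when a progenitor turns on the transcription factors GATA1 and KLF1, and erythropoietin then sustains the cells through its receptor. The later program makes heme, globin and the red cell membrane, and ALAS2 carries out the first step of heme synthesis in red cell precursors. In a stem cell gate, signal of these genes can come from stem cells primed towards red cells or from committed cells inside the gate. In RNA from pools, fewer cells of a type and less RNA per cell cannot be told apart.

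All 9 genes lay above 6.93 on the log2 scale by mean of the 6 arrays. Below that level fell 95% of odorant and pheromone receptor probe sets, and it served as a background mark. Closest to it were Trim10, with means of 7.12 in Lxn-/- and 7.37 in WT, and Alas2, with 7.58 and 7.85. Markers of the labelled cell type were set against the same mark, which cannot tell LT-HSCs from other cells. Of 15 listed LT-HSC markers, 13 were measured and all 13 lay above that mark. So did Cd34, at 13.21, 13.01 and 13.30 in the Lxn-/- pools and 13.08, 13.15 and 13.14 in the WT pools, although the gate excluded CD34 protein. Flt3 and all 19 neutrophil markers on the list were above it as well. Lxn itself read 8.66, 8.78 and 8.78 in the Lxn-/- pools, against 8.99, 9.09 and 9.55 in the WT pools. The Lxn difference was -0.47 (SE 0.14) and did not pass in limma (adjusted p = 0.993). No source used here places its probes relative to the deleted exons, so a signal in Lxn-/- pools neither checks the labels nor goes against them.

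Of the erythroid genes, 5 are shown with the 125 bases before the transcription start that RefSeq's table uses (GRCm38.p6), because Gata1 and Klf1 encode factors that bind short motifs and Alas2 parted from the others in the values that follow. Capitals mark the GATA motif and CACCC, the core of the motif bound by KLF1, on either strand. The GATA motif was searched as AGATAA with its variant AGATAG and as TGATAA with its variant TGATAG. On the opposite strand these matches read TTATCT for the first and TTATCA for the next form, and CACCC reads GGGTG.
Gata1, chrX:7967911-7968035, minus strand: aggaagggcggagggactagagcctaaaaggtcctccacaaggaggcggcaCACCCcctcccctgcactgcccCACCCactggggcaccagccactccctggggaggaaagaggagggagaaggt
Klf1, chr8:84901857-84901981, plus strand: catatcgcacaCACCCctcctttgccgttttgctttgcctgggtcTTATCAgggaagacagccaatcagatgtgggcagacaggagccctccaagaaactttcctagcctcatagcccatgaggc
Epor, chr9:21963577-21963701, minus strand: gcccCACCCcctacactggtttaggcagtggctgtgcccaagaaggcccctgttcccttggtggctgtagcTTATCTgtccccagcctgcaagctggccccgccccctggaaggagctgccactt
Alas2, chrX:150547292-150547416, plus strand: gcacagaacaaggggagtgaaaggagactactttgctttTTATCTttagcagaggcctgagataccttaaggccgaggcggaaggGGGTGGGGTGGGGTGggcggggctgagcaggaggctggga
Ermap, chr4:119189996-119190120, minus strand: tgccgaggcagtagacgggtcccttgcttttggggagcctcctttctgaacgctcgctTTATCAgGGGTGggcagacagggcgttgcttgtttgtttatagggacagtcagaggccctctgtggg

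The promoter table held 6 of the 9 genes. In the 250 bases before the start, 5 of these 6 had a GATA motif and all 6 had CACCC. Over 32851 mouse promoters of the same length, 26.5% had a GATA motif, 52.0% had CACCC and 11.8% had both. Gata1 was the 1 gene of the 6 without a GATA motif in this window. The Alas2 window held 3 copies of CACCC end to end on the opposite strand. Its GATA motif matched the same letters as those of Epor and Trim10. A match describes the letters only.

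Averages of all 9 genes were lower in Lxn-/- than in WT, with differences of -0.063 to -0.41 on the log2 scale and a median of -0.29, but none passed the test over all genes. Over all genes the median difference was -0.013, and 56.0% of genes had a lower mean in Lxn-/-. In limma, 0 of the 9 genes passed an adjusted p of 0.05, as did 0.0% of the 23410 named probe sets, and the adjusted p was 0.993 for each of the 9. At an unadjusted p under 0.05 there was 1 of the 9, Alas2, against 3.9% of all probe sets in either direction and 2.43% with a lower value in Lxn-/-. For none of the 9 did all values of one genotype lie beyond all values of the other, against 8.98% of all probe sets. The 9 genes were proposed with results of these arrays known, so their shared direction is not independent evidence.

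Gata1, the zinc finger factor that commits progenitors to red cells and megakaryocytes, had 9.32, 10.12 and 9.06 in Lxn-/- pools 1, 2 and 3, against 9.35, 9.78 and 10.59 in WT pools 1, 2 and 3. Lxn-/- pool 2 lay above WT pools 1 and 2, so the genotypes overlapped, and the highest and lowest values were those of WT pool 3 and Lxn-/- pool 3. The means were 9.50 ± 0.55 in Lxn-/- and 9.91 ± 0.63 in WT (SD, n = 3 each). The difference was -0.41 (SE 0.35, 95% confidence interval -1.21 to 0.40). An exact two-sided permutation test gave p = 0.5, where 3 arrays against 3 cannot give less than 0.1.

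Klf1, the erythroid Krüppel-like factor that activates globin, heme and membrane genes, had 9.07, 9.60 and 8.72 in the Lxn-/- pools, against 9.17, 9.37 and 9.95 in the WT pools. The order of the 6 pools was that of Gata1. Klf1 averaged 9.13 ± 0.44 in Lxn-/- and 9.50 ± 0.41 in WT (SD, n = 3 each), a difference of -0.36 (SE 0.25, 95% confidence interval -0.95 to 0.22).

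Epor, the erythropoietin receptor, had 8.95, 9.67 and 8.58 in the Lxn-/- pools, against 8.98, 9.27 and 9.82 in the WT pools. Again the 6 pools stood in the order of Gata1. The difference was -0.29 (SE 0.29, 95% confidence interval -0.96 to 0.39), smaller than the range of 1.09 among the Lxn-/- pools and of 0.84 among the WT pools.

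Alas2, whose product starts heme synthesis in red cell precursors, had 7.61, 7.44 and 7.68 in the Lxn-/- pools, against 8.02, 7.901 and 7.62 in the WT pools. Only WT pool 3 reached into the range of the Lxn-/- pools, and it was here the lowest WT pool. Alas2 averaged 7.58 ± 0.12 in Lxn-/- and 7.85 ± 0.21 in WT (SD, n = 3 each). The difference was -0.27 (95% confidence interval -0.54 to -0.0049), with an unadjusted p of 0.0468 in limma and p = 0.2 in the exact permutation test.

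Slc4a1, the anion exchanger band 3 of the red cell membrane, had 8.62, 8.94 and 8.74 in the Lxn-/- pools, against 9.003, 8.82 and 9.39 in the WT pools. The overlap came from Lxn-/- pool 2, which lay above WT pool 2. The difference was -0.31 (SE 0.15, 95% confidence interval -0.65 to 0.038).

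Ermap, a butyrophilin-like membrane protein of erythroblasts, had 11.21, 11.93 and 10.56 in the Lxn-/- pools, against 11.16, 11.64 and 12.09 in the WT pools. Lxn-/- pools 1 and 2 both lay above WT pool 1. With a range of 1.53 over the 6 arrays it varied as widely as Gata1, also with 1.53, and 0.492% of all genes varied more widely than Gata1. The Ermap difference was -0.40 (SE 0.35, 95% confidence interval -1.20 to 0.40).

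Trim10, a RING finger protein made late in red cell formation, had 7.04, 7.27 and 7.06 in the Lxn-/- pools, against 7.21, 7.32 and 7.57 in the WT pools. It overlapped between genotypes through Lxn-/- pool 2 and WT pool 1. The difference was -0.24 (SE 0.11, 95% confidence interval -0.50 to 0.011).

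Car1 and Car2 encode carbonic anhydrases 1 and 2, cytosolic enzymes of red cells that interconvert carbon dioxide and bicarbonate. Car1 had 13.40, 13.86 and 13.20 in the Lxn-/- pools, against 13.47, 13.59 and 13.92 in the WT pools, and followed the order of Gata1. Its difference was -0.18 (SE 0.18, 95% confidence interval -0.59 to 0.24). Car2 had 13.11, 13.20 and 13.09 in the Lxn-/- pools, against 13.09, 13.15 and 13.34 in the WT pools. It varied least of the 9, with a range of 0.26 over the 6 arrays and a difference of -0.063 (SE 0.083, 95% confidence interval -0.26 to 0.13).

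**Figure D1:**
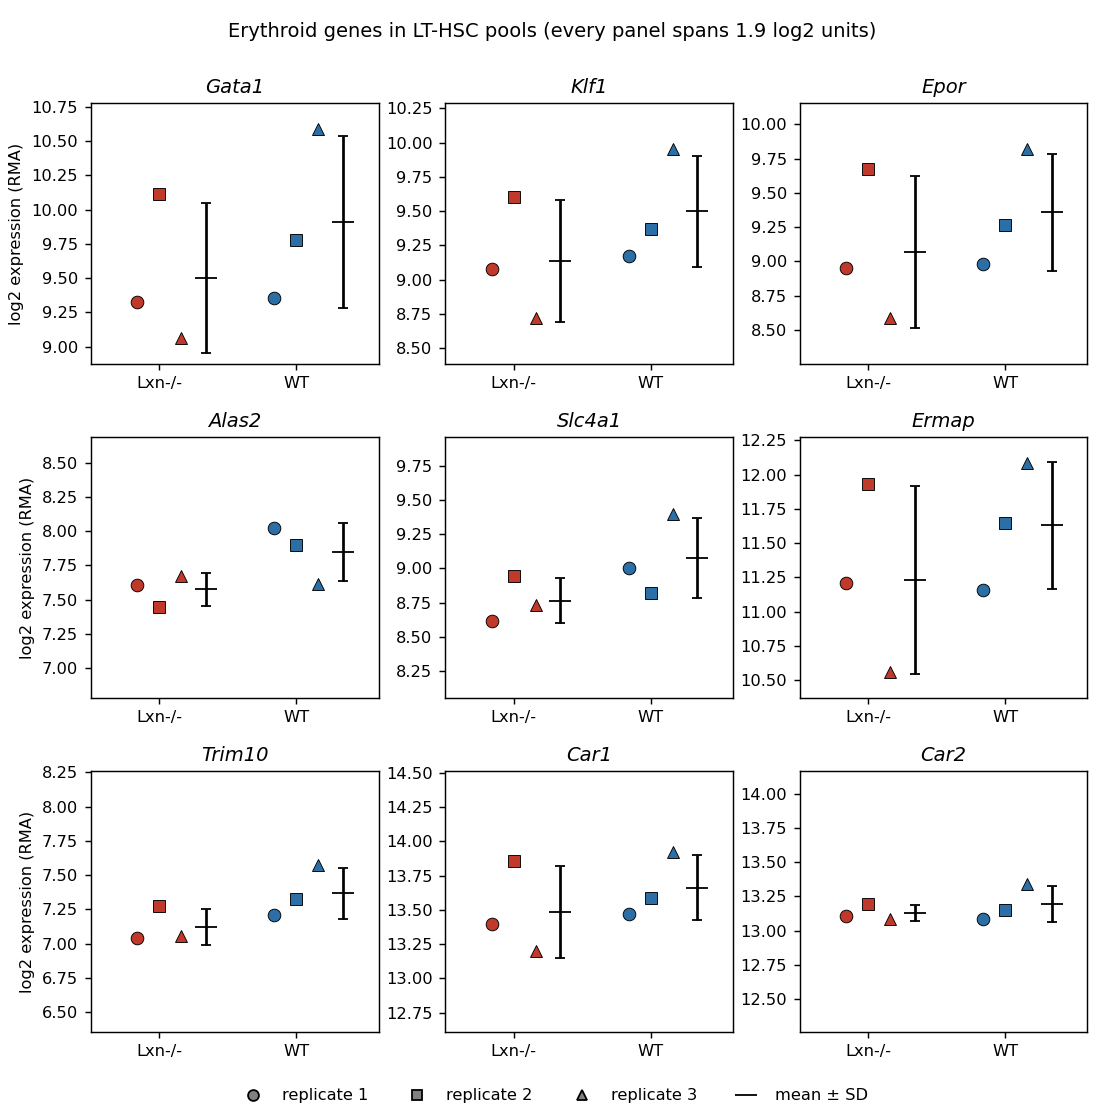
Log2 RMA expression (vertical axes) of the 9 erythroid genes in each Lxn-/- pool (left, red) and WT pool (right, blue); symbols give the replicate number and black bars the mean ± SD of 3 arrays. WT pool 3 was highest for 8 of the 9 genes, against 25.6% of all genes, and the genotypes overlap in every panel.

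For most of the 9 genes, pools of one genotype differed by more than the genotypes did. The range among the WT pools exceeded the difference between genotypes for all 9 genes. The range among the Lxn-/- pools did so for 7, the exceptions being Alas2 and Trim10. Neither count was made over all genes, so whether the 9 genes stand apart in this is not known. A range of single pools and a difference between means are also unlike measures. Over the 6 arrays the median range was 0.78 for the 9 genes and 0.28 for all genes. Half-widths of the 95% confidence intervals had a median of 0.41 for the 9 genes, against 0.19 for all named probe sets.

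The direction of most differences changed when both arrays of replicate number 3 were left out. WT pool 3 was highest for 8 of the 9 genes, against 25.6% of all genes. Lxn-/- pool 3 was lowest for 6 of the 9, against 17.1% of all genes. Both held for 6 of the 9 genes, against 5.04% of all genes. An alternative without these 2 arrays was chosen after the values were seen. For genes whose highest WT and lowest Lxn-/- values lay in them, leaving them out could only raise the difference. The share of all genes whose sign turned is not given here. Without these 2 arrays, the median difference was 0.069 and 6 of the 9 genes had a higher mean in Lxn-/-. Gata1 then differed by 0.15, Klf1 by 0.069 and Epor by 0.19. Alas2, Slc4a1 and Trim10 kept a lower mean in Lxn-/- without them, with differences of -0.44, -0.13 and -0.11. With single arrays left out, the median difference ran from -0.14 without WT pool 3 to -0.40 without Lxn-/- pool 2. Without WT pool 3 the difference of Gata1 was -0.066 and that of Epor -0.056, and without Lxn-/- pool 3 they were -0.19 and -0.045. Car2 was higher in Lxn-/- without WT pool 3, with a difference of 0.011. Without Lxn-/- pool 2 the genotypes did not overlap for Gata1, Klf1, Epor, Slc4a1, Trim10 and Car1, 6 of the 9 genes, against 19.5% of all probe sets in the same 5 arrays.

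**Figure D2:**
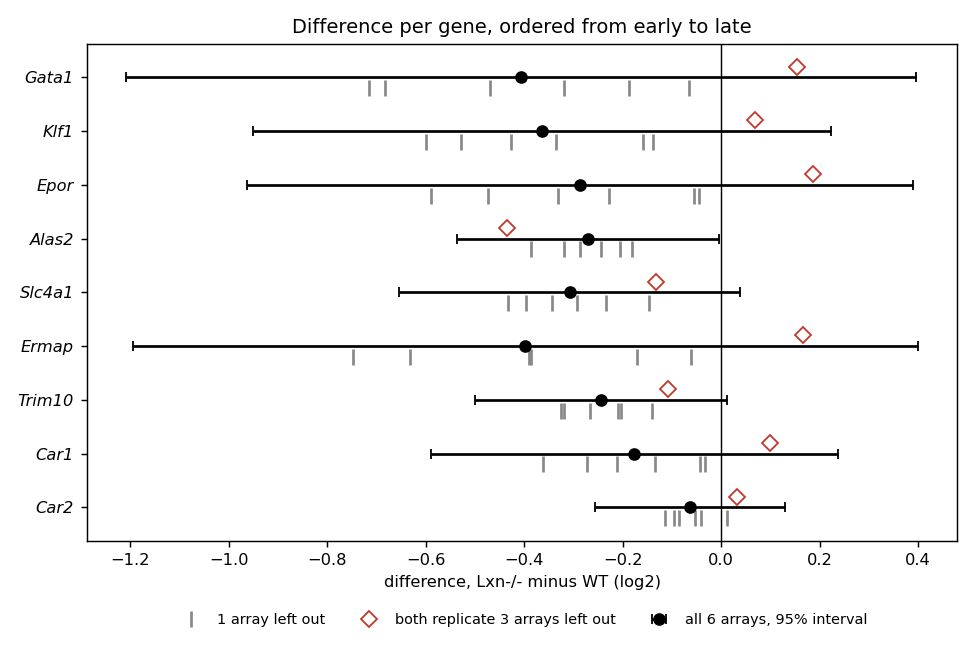
Difference between genotypes, Lxn-/- minus WT on the log2 scale (horizontal axis), for each gene from early (top) to late (bottom); black points with bars are all 6 arrays with limma's 95% confidence interval, grey ticks leave out 1 array each, and red diamonds leave out both arrays of replicate number 3. The diamonds of 6 genes lie to the right of 0, and those of Alas2, Slc4a1 and Trim10 to its left.

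Across pools, 8 of the 9 genes varied together and Alas2 did not. Among the 28 pairs of the 8 genes, Pearson's r over the 6 arrays had a median of 0.91 and ran from 0.66 for Slc4a1 with Ermap to 0.998 for Epor with Car1. All pairs share the same 6 arrays, so these values describe the pools and carry no test. In the 8 pairs with Alas2, r ran from -0.42 to -0.022. When each gene's genotype means were removed, the 28 pairs had a median of 0.92, whereas the 8 pairs with Alas2 ran from -0.99 to -0.81. Within each genotype, Alas2 thus stood in the reverse order of Gata1, Klf1, Epor, Ermap, Car1 and Car2. Its highest Lxn-/- value was in pool 3 and its lowest in pool 2, and its highest WT value was in pool 1 and its lowest in pool 3. Slc4a1 and Trim10 had their lowest value in Lxn-/- pool 1 instead of pool 3.

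**Figure D3:**
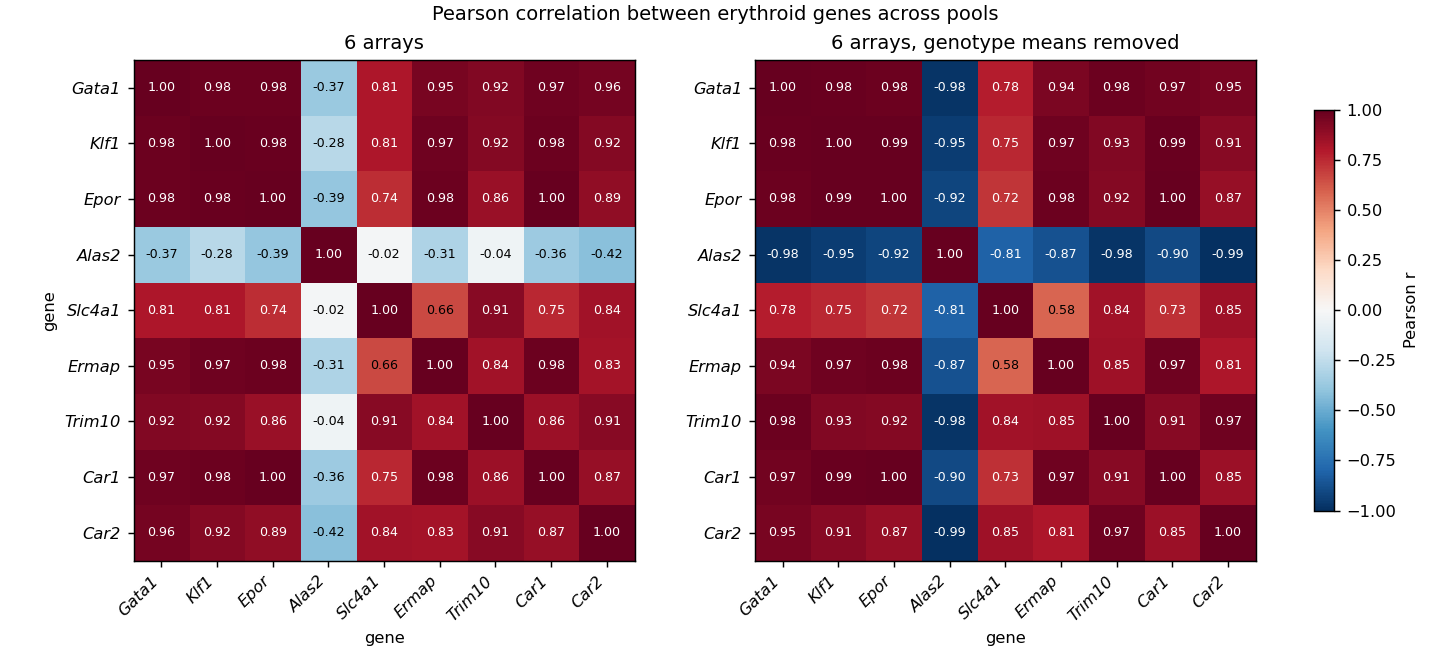
Pearson's r between each pair of the 9 genes over the 6 arrays (left) and over the same arrays after the mean of each genotype was removed (right); both axes list the genes. The Alas2 row is the one with negative values, from -0.42 to -0.022 on the left and from -0.99 to -0.81 on the right.

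The other enzymes of heme synthesis mostly followed the 8 genes rather than Alas2. Of 7 measured enzymes, 6 had a lower mean in Lxn-/- and none passed the test, with a median difference of -0.11. Cpox, which makes protoporphyrinogen, had 9.78, 10.39 and 9.68 in the Lxn-/- pools, against 10.01, 10.31 and 10.65 in the WT pools, with r = 0.99 to the mean of the 9 genes over 6 arrays. Fech, which inserts iron, differed by -0.18 (SE 0.17), Alad by -0.14 (SE 0.13) and Urod by -0.11 (SE 0.10), with r of 0.96, 0.93 and 0.97. Alad, Urod, Cpox and Fech stood in the within-genotype order of Gata1. The remaining enzymes were Uros (-0.092, SE 0.11, r = 0.84), Ppox (0.084, SE 0.065, r = -0.45) and Alas1 (-0.11, SE 0.14). Alas1, the enzyme that begins heme synthesis in most other cells, had r = 0.32 to the 9 genes.

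Genes that handle heme and iron had a median difference of -0.051, with 17 of 21 lower and none passing. The 2 of lowest unadjusted p were Slc25a37, the mitochondrial iron importer mitoferrin 1, at 0.22 (SE 0.13) and the ferrireductase gene Steap3 at -0.26 (SE 0.19). Steap3 had 10.08, 10.45 and 9.80 in the Lxn-/- pools, against 10.16, 10.23 and 10.73 in the WT pools, and so shared the order of Gata1, whereas Slc25a37 had its lowest value in WT pool 3.

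Genes of the red cell membrane and blood groups had a median difference of -0.20, with 19 of 23 lower and none passing, and at an unadjusted p under 0.05 there was 1, against 3.9% of all probe sets in either direction and 2.43% lower in Lxn-/-. That gene, Mpp1, a membrane-associated guanylate kinase relative, had 10.24, 10.32 and 10.18 in the Lxn-/- pools, against 10.41, 10.38 and 10.67 in the WT pools, and was the 1 gene of the 23 without overlap, against 5.38% of all probe sets lower in Lxn-/- without overlap. Stom, which encodes stomatin, differed by -0.42 (SE 0.20). The within-genotype order of Gata1 was shared by 12 of the 23, against 5.02% of all genes. Among them were Rhag, Aqp1 and Kel, chosen after their values were seen. Rhag, the Rh-associated glycoprotein, had 8.93, 9.92 and 8.62 in the Lxn-/- pools, against 9.03, 9.64 and 10.47 in the WT pools. The water channel gene Aqp1 differed by -0.42 (SE 0.34) and the blood group gene Kel by -0.39 (SE 0.34).

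Globin genes with a probe set of their own were embryonic or theta globins, and the probe sets of the adult globins match several genes each and were not used. Of 5 measured, 4 had a lower mean in Lxn-/- and none passed, with a median difference of -0.16. Hbb-y (-0.24, SE 0.11), Hbq1a (-0.21, SE 0.11) and Hbb-bh1 (0.079, SE 0.10) lay below the background mark. Hbq1b (-0.16, SE 0.078) and Hba-x (-0.086, SE 0.099) lay above it. None of the 5 shared the within-genotype order of Gata1.

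Regulators that act with GATA1 and KLF1 had a median range of 0.29 over the 6 arrays. Of 24 measured, 16 had a lower mean in Lxn-/- and none passed, with a median difference of -0.033. The 2 of lowest unadjusted p were the cell cycle factor E2f2 at -0.23 (SE 0.11) and the erythroid nuclear protein gene Hemgn at -0.26 (SE 0.12). Genes of the complex that binds DNA with GATA1 or its relative GATA2, chosen after their values were seen, differed by -0.030 for Gata2, 0.016 for Tal1, 0.053 for Lmo2 and 0.019 for Ldb1. Gata2 had 11.56, 11.79 and 11.82 in the Lxn-/- pools, against 11.62, 11.77 and 11.87 in the WT pools. In a list of erythropoietin signalling genes that also held Kit and Kitl, 8 of 14 had a lower mean in Lxn-/-. None passed, and the median difference was -0.026. Socs3, a feedback inhibitor of cytokine receptors, differed by 0.40 (SE 0.18) and Erfe, the erythroid hormone that acts on iron supply, by -0.14 (SE 0.096).

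Some marker lists of other cells moved with the erythroid genes across pools, and others moved against them. The neutrophil list had mean levels of 10.43, 9.53 and 11.05 in the Lxn-/- pools, against 10.80, 10.32 and 9.01 in the WT pools, the reverse of the order of Gata1 within both genotypes. Its r to the mean of the 9 genes was -0.94 over the 6 arrays, and 15 of 19 markers were lowest in WT pool 3. The share of all genes lowest in WT pool 3 was not counted, and that array had the lowest median of the 6. The order of Alas2 within both genotypes was shared by 12 of the 19, against 4.23% of all genes, and with genotype means removed r between Alas2 and the neutrophil mean was 0.98. Ltf and Elane were chosen after their values were seen. Ltf, which encodes lactoferrin, had 10.42, 8.17 and 11.43 in the Lxn-/- pools, against 10.85, 9.72 and 7.73 in the WT pools. The primary granule gene Elane had 12.81, 13.24 and 12.59 in the Lxn-/- pools, against 13.00, 13.31 and 12.76 in the WT pools, and did not share that order. None of the 19 passed and 14 had a higher mean in Lxn-/-, with S100a8 at 0.75 (SE 0.76) and the receptor gene Csf3r at 0.18 (SE 0.13). The median difference of the list was 0.46, but -0.58 without both arrays of replicate number 3, 0.015 without Lxn-/- pool 3 and -0.18 without WT pool 3. The part of neutrophil content in the erythroid values was not tested.

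Mitosis genes ran with the erythroid genes, with mean levels of 10.15, 10.34 and 9.97 in the Lxn-/- pools, against 10.17, 10.31 and 10.45 in the WT pools. Of 33 measured, 32 had a lower mean in Lxn-/-, none passed, and 22 shared the within-genotype order of Gata1. Ube2c differed by -0.29 (SE 0.13) and Kif20a by -0.27 (SE 0.14). B cell markers had mean levels of 9.39, 9.44 and 9.36 in the Lxn-/- pools, against 9.75, 9.46 and 9.92 in the WT pools, and 0 of 17 passed in limma. A lower mean in Lxn-/- was found for 15 of 17, with a median difference of -0.37. At an unadjusted p under 0.05 there were 7, against 3.9% of all probe sets, and 5 were lower without overlap, against 5.38%. The B cell list had r = 0.67 to the 9 genes, with single markers from -0.86 to 0.86 and 13 of 17 above 0. Pou2af1, a B cell coactivator, differed by -0.74 (SE 0.12) and Fcrla by -0.60 (SE 0.14). Mast cell and basophil markers had r = 0.75 to the 9 genes, with single markers from -0.56 to 0.95 and 10 of 14 above 0. Of the 14, 9 were lower and none passed, and 2 had an unadjusted p under 0.05, against 3.9% of all probe sets. The dim probe sets of Cma1 (-0.25, SE 0.086) and Tpsab1 (0.21, SE 0.083) had the lowest unadjusted p. T and NK cell markers had r = 0.71, with 7 of 17 lower and none passing, Klrb1c at 0.31 (SE 0.26) and Gzmb at -0.16 (SE 0.17). Monocyte and macrophage markers had r = 0.40, but single markers ran from -0.96 to 0.73, and 12 of 19 had r above 0. Of the 19, 6 were lower and none passed, with Cd68 at 0.19 (SE 0.089) and Fcgr1 at 0.11 (SE 0.085). The lineage markers of the sort are not named one by one here. Genes listed as lineage antigens had r = -0.84, with 2 of 7 lower and none passing, but the members were split. Of the 7, 4 had r above 0, up to 0.92 for Il7r, and Ly6g, with the widest range of the 7 at 3.43, had -0.94. Differences were 0.10 (SE 0.093) for Ptprc and -0.18 (SE 0.25) for Il7r. Of the LT-HSC markers, 10 of 13 had a higher mean in Lxn-/-, none passed, and the median was 0.040, with r = -0.14 between the list's mean and the 9 genes. Single markers ran from -0.98 for Procr to 0.61 for Tek, and 5 of 13 had r above 0. The 2 of lowest unadjusted p were Meis1, with a difference of 0.13 (SE 0.082), and Pdzk1ip1, with -0.25 (SE 0.15). Tek and Ly6g are named here after their values were seen. Procr, the endothelial protein C receptor of stem cells, had 10.33, 10.06 and 10.45 in the Lxn-/- pools, against 10.30, 10.21 and 10.03 in the WT pools, the reverse of the Gata1 order within each genotype, with r = -0.98. Slamf1 had 9.23, 9.55 and 9.42 in the Lxn-/- pools, against 8.96, 9.24 and 9.63 in the WT pools. Kit, part of the gate, differed by 0.040 (SE 0.069). The part of these cells in the erythroid values was not tested.

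**Figure D4:**
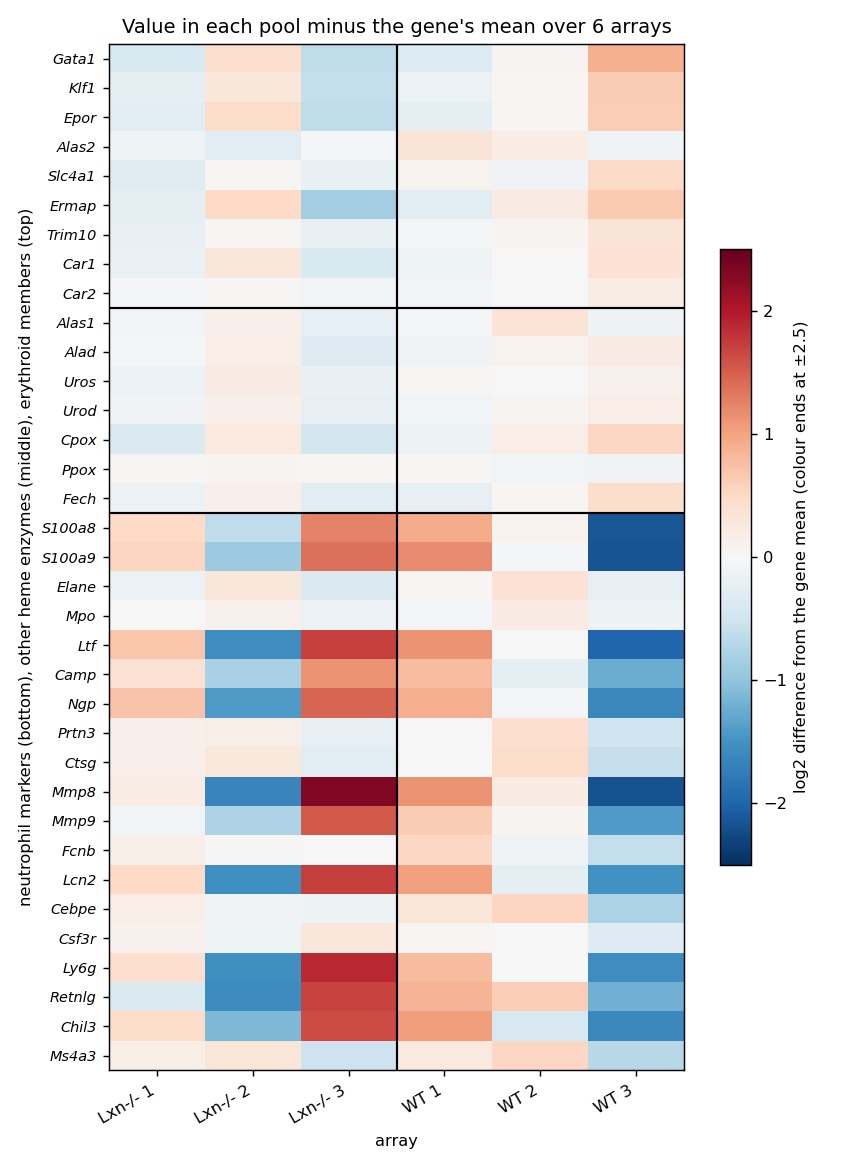
Value of each gene in each array minus the gene's mean over the 6 arrays (colour, log2 units), with Lxn-/- pools 1 to 3 left and WT pools 1 to 3 right; rows are the 9 erythroid genes (top), 7 other heme enzymes (middle) and 19 neutrophil markers (bottom). WT pool 3 is red for 8 of the 9 erythroid genes and blue for the neutrophil markers, where 15 of 19 had their lowest value. The share of all genes lowest in that pool was not counted.

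The genes most like the mean of the 9 genes were picked from the other genes by Pearson's r over the 6 arrays. Genes with predicted or clone names (Gm or Rik) were left out of this choice. All genes share the same 6 arrays, so r is given as a description, and 2.51% of all genes had r above 0.9 while 2.00% had r below -0.9. The 8 at the top were Adck1, Ubac1, Myg1, Stk32c, Slc38a5, Epdr1, Slc11a2 and Gtse1, with r from 0.995 to 0.999. Adck1, an aarF domain kinase relative, had 9.28, 10.31 and 8.81 in the Lxn-/- pools, against 9.65, 10.06 and 11.06 in the WT pools. Its difference was -0.79 (SE 0.44). Slc38a5, an amino acid transporter gene, differed by -0.42 (SE 0.28) and Slc11a2, the iron transporter DMT1, by -0.21 (SE 0.16). Differences were -0.41 for Epdr1, -0.18 for Gtse1, -0.12 for Ubac1, -0.11 for Stk32c and -0.042 for Myg1, and none of the 8 passed in limma.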

How the data were processed

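The deposited values are log2 expression, 1 column per array, already put through robust multi-array average (RMA) by the authors, as the series' design text states. The submitters' processing notes add Partek 6.0, and no source used here gives the summary level or the probe set definitions. Per the labels, cRNA was made from 100 ng total RNA. Precision is limited by having 3 arrays per genotype, and array medians ran from 7.77 to 7.91. The pools are called biological replicates in the labels.

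Of 35557 probe sets, GEO's platform annotation gave 21789 exactly 1 symbol and 1621 several, and 12147 were unnamed here. The 23410 named ones were fitted with limma 3.58.1 in R 4.3.3 (lmFit, eBayes, no covariates, all 6 arrays), with a two-sided test and Benjamini-Hochberg adjustment over all of them at 0.05. Each gene was represented by its brightest single-symbol probe set by mean of 6 arrays. Differences are Lxn-/- minus WT. Correlations are descriptions without p. The fitting code was checked on simulated arrays.

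Named were the 9 genes, Lxn, gate genes (Kit, Cd34 and Flt3), the LT-HSC markers Procr and Slamf1, and all heme enzymes and globins. Also named were the 2 genes of lowest unadjusted p in each related list and the 8 genes most like the mean of the 9. Predicted or clone names (Gm or Rik) were left out when these 8 were picked. Others are said to be chosen after their values were seen. The genes and lists were chosen with earlier results of these data known. Lists were described by counts and medians, without a set test. Alternatives were other scalings, array weights, a variance trend, filters, a replicate block and arrays left out. Sequences are RefSeq's.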

Additional observations from a re-analysis of the deposited data

How the results depend on the processing

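No probe set and none of the 9 genes passed an adjusted p of 0.05 in limma under any of the 15 alternatives run, where 0.102 was the lowest adjusted p over all probe sets and 0.628 the lowest among the 9 genes. The median difference of the 9 genes stayed between -0.40 and -0.14 with single arrays left out, and was -0.32 with quantile normalization, -0.33 with a common median, -0.23 with array weights and -0.29 with the replicate block. It was 0.069 without both arrays of replicate number 3, where the signs of Gata1 (0.15), Klf1 (0.069), Epor (0.19), Ermap (0.17), Car1 (0.10) and Car2 (0.033) turned. With single arrays left out Car2 ran from -0.11 to 0.011, with its sign turned without WT replicate 3. Genes without overlap numbered 0 to 6 with single arrays left out (6 without Lxn-/- replicate 2, and 1 without Lxn-/- replicate 3 or any 1 WT array) and 1, Alas2, with quantile normalization, with a common median and without both arrays of replicate number 3, against 0 with the settings of the report. Shares of all probe sets without overlap were 9.16% with quantile normalization, 9.38% with a common median, 15.1% to 24.0% with single arrays left out and 32.1% without both arrays of replicate number 3. This count has no value under the replicate block. With the replicate block 0 of the 9 genes passed. Same-numbered pools correlated in their deviations from the genotype means at 0.37, -0.072 and -0.081 over all named probe sets, so the numbers were not taken as pairs, and 1 of the 3 Lxn-/- pools correlated best with its own number. The cause of these shifts was not tested.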

Other observations

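Carbonic anhydrase genes other than Car1 and Car2 had a median difference of -0.030, with 8 of 14 lower in Lxn-/-, 9 above the background mark and none passing in limma. Car7 differed by -0.21 (SE 0.094) and Car12 by 0.14 (SE 0.083). Car3 and Car13, relatives of Car1 and Car2 chosen after their values were seen, had r of 0.95 and 0.66 to the mean of the 9 genes over 6 arrays. Car3 had 7.18, 7.499 and 7.07 in the Lxn-/- pools, against 7.13, 7.28 and 7.76 in the WT pools.

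Other genes of late red cell formation had a median difference of -0.060, with 23 of 35 lower and none passing, and at an unadjusted p under 0.05 there was 1, against 3.9% of all probe sets. That gene, Bpgm, which makes 2,3-bisphosphoglycerate in red cells, had 7.93, 7.88 and 8.06 in the Lxn-/- pools, against 8.12, 8.30 and 8.25 in the WT pools, with r = 0.33 to the mean of the 9 genes. Bpgm, Isg20 and Mkrn1, the last named after its values were seen, were lower in Lxn-/- without overlap, 3 of the 35 against 5.38% of all probe sets. Isg20 differed by -0.32 (SE 0.15). Megakaryocyte and platelet genes had a median of 0.018, with 5 of 16 lower and none passing, and Itga2b differed by 0.14 (SE 0.085) and Vwf by 0.12 (SE 0.10).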
